A study of Mus musculus with 12 samples.

Results

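The miR-17/92 cluster is a group of microRNAs cut from 1 primary transcript, and its mature products were followed here in plasma extracellular vesicles of mice with bile duct ligation or sham surgery. The members were 10 mature names of the cluster's hairpins, listed by name and not by measured values: mmu-miR-17-5p, mmu-miR-17-3p, mmu-miR-18a-5p, mmu-miR-18a-3p, mmu-miR-19a-3p, mmu-miR-19b-3p, mmu-miR-20a-5p, mmu-miR-20a-3p, mmu-miR-92a-3p and mmu-miR-92a-1-5p, written below without the species prefix. All 10 were present among the 1915 mouse microRNA names of the counts table. The study collected small RNA from circulating vesicles of male C57BL/6J mice on day 8 after bile duct ligation (BDL, 6 libraries), an operation that blocks bile flow and causes cholestasis and liver fibrosis, and from male C57BL/6J mice on day 8 after sham surgery (sham, 6 libraries). No transgene, deletion or drug is given for either group, and the labels state no age. Blood was taken into EDTA by cardiac puncture, vesicles were precipitated from plasma with ExoQuick, a polymer reagent that also brings down other particles, and libraries were made from 40 ng of RNA with the NEBNext small RNA kit and 15 PCR cycles. The tissue label names the liver and the site label the vesicles, and the title of the series names mRNA sequencing, while the rows of the table are microRNAs. The study's design text gives 6 animals per group, but no label ties a library to an animal, so the p-values below measure the spread between libraries.

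The cluster, named oncomiR-1 in the cancer literature, is transcribed in dividing cells under MYC and E2F and is needed for the development of B cells, heart and lung. Its members fall into seed families, which share the bases that pair with target messages: the miR-17 and miR-20a group, which is known to target cell cycle inhibitors, the related miR-18 group, the miR-19 group, and miR-92a, which is known to restrain blood vessel growth. One arm of each hairpin is usually loaded into Argonaute proteins as the guide, and the other arm, the passenger, is mostly degraded. In plasma these microRNAs are carried by blood cell and platelet products and by vesicles from tissues, and bulk plasma RNA does not tell fewer vesicles of one cell type from less microRNA in each vesicle.

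The sequences below show which members share a seed, since the results are given by seed family. They are the mature sequences of RefSeq on mouse build GRCm38.p6, 5′ to 3′, with the seed (bases 2 to 8) in capitals, and 10 of the 10 members had an entry.
miR-17-5p: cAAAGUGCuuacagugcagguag
miR-20a-5p: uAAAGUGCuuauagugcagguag
miR-18a-5p: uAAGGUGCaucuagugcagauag
miR-19a-3p: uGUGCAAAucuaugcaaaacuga
miR-19b-3p: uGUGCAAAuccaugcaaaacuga
miR-92a-3p: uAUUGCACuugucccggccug
miR-17-3p: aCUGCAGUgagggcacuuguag
miR-18a-3p: aCUGCCCUaagugcuccuucug
miR-20a-3p: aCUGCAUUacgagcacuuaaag
miR-92a-1-5p: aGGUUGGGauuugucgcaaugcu
Counted from 1 at the 5′ end, miR-17-5p and miR-20a-5p differ by C1U and C12U, with the miR-17-5p base first, and share the seed AAAGUGC. miR-19a-3p and miR-19b-3p differ by U11C alone, with the miR-19a-3p base first. How reads that match both of such a pair were counted is not stated, so reads of each pair may have been divided by a single base.

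The 6 hairpins lie on the plus strand of mouse chromosome 14 within 836 bases (GRCm38.p6, chr14:115043671-115044506), inside exon 2 of the lincRNA gene Mir17hg in the GENCODE annotation. miR-19b-3p and miR-92a-3p have a second hairpin each on the minus strand of chromosome X, in the miR-106a-363 cluster, with the same mature sequence, and counts of these members cannot be assigned to 1 of the 2 loci. Which build the authors mapped to is not stated.

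The libraries held 121003 to 3506914 mouse microRNA counts, and BDL library 4 was the shallowest by far. BDL libraries 2, 4 and 6, with 623117, 121003 and 666310 counts, were the shallowest in the BDL group, and all 3 carried the code suffix 26, whose meaning is not given. Sham library 6, also of suffix 26, held 659302 counts and had low values for several members. Libraries also share a first code digit in pairs within a group, again with no meaning given. A floor of 3 counts was worth 0.624 CPM (counts per 1000000, scaled by the TMM method of edgeR) in BDL library 1 but 23.98 CPM in BDL library 4. Each result below is therefore given with and without these libraries where they change it. The fits without BDL libraries 2, 4 and 6 kept sham library 6, so they removed shallow libraries from 1 group only.

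miR-92a-3p made up nearly all of the cluster's signal. The 10 members together took 0.803 ± 0.282% of mouse counts in BDL libraries and 1.12 ± 0.267% in sham libraries (SD, n = 6 each). Of these counts, miR-92a-3p held 98.1 ± 0.556% in BDL libraries and 97.8 ± 0.314% in sham libraries (SD, n = 6 each). By mean CPM it stood at rank 15 of 1915 names in BDL libraries and at rank 6 in sham libraries. Its mean level was 522-fold that of miR-17-5p in BDL libraries and 191-fold in sham libraries, and part of its reads may come from the hairpin on chromosome X. Small RNA kits ligate different sequences with different efficiency, so levels compared between names carry that bias, whereas a comparison of 1 name between groups has it on both sides.

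Below miR-92a-3p the order of levels depended on the group. In BDL libraries the mean levels ran from miR-18a-3p at 48.3 CPM and miR-18a-5p at 47.5 CPM through miR-17-5p at 14.4, miR-20a-5p at 11.7 and miR-19a-3p at 11.2 to miR-19b-3p at 9.30 CPM. In sham libraries miR-18a-5p at 61.2 CPM, miR-17-5p at 58.2, miR-18a-3p at 51.5 and miR-20a-5p at 46.5 CPM came close together, above miR-19b-3p at 18.7 and miR-19a-3p at 16.2 CPM. Neighbours within the upper 4 of the sham group differed by less than their SD, as did the lower 4 of the BDL group. The plot of mean levels shows that miR-17-5p and miR-20a-5p stood beside both miR-18a arms in sham libraries but beside the miR-19 members in BDL libraries.

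**Figure D1:**
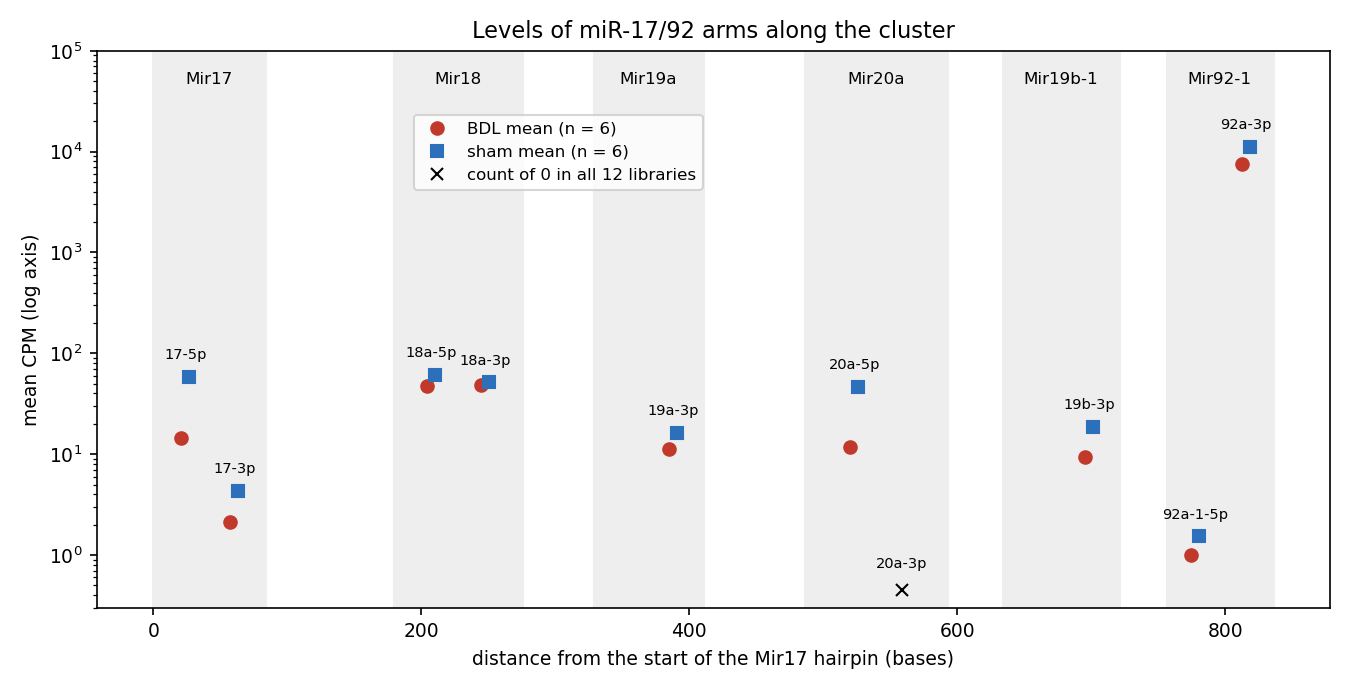
Mean level of each cluster member in CPM on a log axis, placed along the hairpins on chromosome 14. Each member has 1 point per group mean, BDL left of sham, and a cross marks miR-20a-3p, which had no read. miR-92a-3p, with means of 7542 CPM in BDL libraries and 11118 CPM in sham libraries, lay far above every other member. miR-17-5p and miR-20a-5p showed the widest gap between the group means.

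The comparison of BDL with sham asks whether blocked bile flow changed the vesicle content of these microRNAs. miR-17-5p and miR-20a-5p fell in BDL libraries, to means of 14.4 and 11.7 CPM against 58.2 and 46.5 CPM in sham libraries (n = 6 each), and neither the miR-18a arms, the miR-19 members nor miR-92a-3p passed the test. Of the 10 members, 7 had enough counts for the edgeR quasi-likelihood test over 341 names, and the 3 others were too low. Among these 7, 2 were lower at an adjusted p under 0.05 (28.6%), where 62 of all 341 tested names (18.2%) were lower, so the members' share was not far from that of all names. None of the 7 was higher, at an adjusted or an unadjusted p under 0.05, by edgeR, DESeq2 or limma-voom, where 24.6% of all tested names were higher by edgeR and 24.3% by DESeq2. DESeq2 called 3 of the 7 lower, with 24.3% of all names lower, and limma-voom 2, with 18.5% lower. No member had every BDL library below every sham library, as 32 of the 341 names had (9.38%). The fitted log2 fold change (BDL minus sham) was negative for all 7, with a median of -0.56 against 0.031 over all tested names. A member that passed the count filter only through the sham group had to be lower in BDL, so these shares describe the 7 and not the cluster as a whole.

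miR-17-5p, the member that gives its seed family its name, had 21.8, 10.8, 25.4, 0, 26.8 and 1.84 CPM in BDL libraries 1 to 6, against 60.6, 66.7, 60.6, 54.7, 80.6 and 25.9 CPM in sham libraries 1 to 6. Every sham library but the sixth lay above the highest BDL library, and 5 of 6 BDL libraries lay below the lowest sham library, so the groups met only at BDL library 5 and sham library 6. Mean levels were 14.4 ± 11.9 CPM in the BDL group and 58.2 ± 18.1 CPM in the sham group (n = 6 each, SD). The fitted log2 fold change of miR-17-5p was -1.77 ± 0.47 (SE, edgeR adjusted p = 0.00601). The counts behind these values were 105, 6, 68, 0, 42 and 1 reads in BDL libraries and 175, 164, 87, 57, 160 and 17 reads in sham libraries. BDL libraries 2, 4 and 6 thus held few reads, and the 0 in BDL library 4 allows up to 23.98 CPM by the floor of 3 counts, still below every sham library. Without BDL libraries 2, 4 and 6, a choice that left 15.4% of 409 names lower, the log2 fold change of miR-17-5p was -1.23 (edgeR adjusted p = 0.0131), and without sham library 6 it was -1.996 (edgeR adjusted p = 0.00417).

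miR-20a-5p, which shares the seed of miR-17-5p, showed the same picture. It had 18.5, 3.59, 19.1, 7.99, 19.1 and 1.84 CPM in BDL libraries, against 49.9, 57.3, 47.4, 44.2, 68.0 and 12.2 CPM in sham libraries. Again 5 sham libraries lay above the highest BDL library, and sham library 6 lay among the BDL values. Mean levels were 11.7 ± 8.16 CPM in the BDL group and 46.5 ± 18.8 CPM in the sham group (n = 6 each, SD), with a fitted log2 fold change of -1.81 ± 0.48 (SE, edgeR adjusted p = 0.00601). BDL libraries 2, 4 and 6 held 2, 1 and 1 reads of it. Without those 3 libraries the log2 fold change of miR-20a-5p was -1.30 (edgeR adjusted p = 0.0206), and without sham library 6 it was -2.09 (edgeR adjusted p = 0.00197).

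The 2 calls were also examined within the code suffixes. In the BDL group every library of suffix 24 was deeper than those of suffix 26, which did not hold in the sham group. Among the 3 BDL and 3 sham libraries of suffix 24, the log2 fold change of miR-17-5p was -1.42 ± 0.32 and that of miR-20a-5p -1.51 ± 0.33 (SE, edgeR adjusted p = 0.0073 and 0.00629), where 12.9% of the 403 names tested there were lower. Among the libraries of suffix 26 miR-17-5p gave -3.25 ± 0.73 (SE, edgeR adjusted p = 0.00328), where 18.1% of 265 names were lower, and miR-20a-5p had too few reads to be tested. Over all 12 libraries, the difference between the suffixes (26 minus 24) was -1.72 ± 0.80 for miR-17-5p and -1.97 ± 0.89 for miR-20a-5p (SE). Neither passed after adjustment over all names (edgeR interaction, unadjusted p = 0.0458 and 0.0402, adjusted p = 0.24 and 0.22). With the 2 libraries of each first code digit summed, leaving 3 BDL and 3 sham units, miR-17-5p gave -1.51 and miR-20a-5p -1.59 (edgeR adjusted p = 0.0014 and 0.00139), where 17.1% of 438 names were lower.

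**Figure D2:**
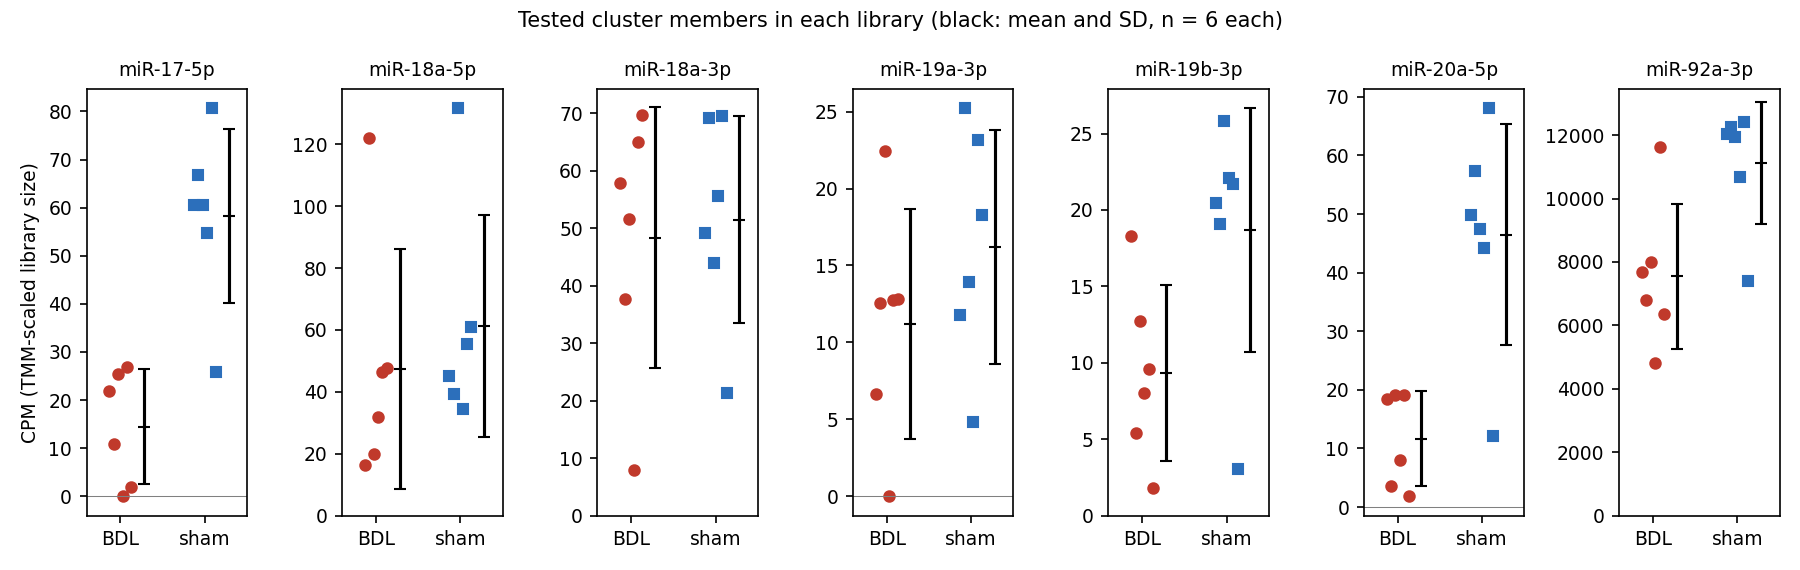
CPM of the 7 tested members in each library, BDL libraries left of sham libraries, with the mean and SD of each group. For miR-17-5p 5 of 6 BDL libraries lie below the lowest sham library, while both miR-18a arms and miR-19a-3p mix between the groups, and sham library 6 is low for miR-17-5p, miR-20a-5p, miR-19b-3p and miR-92a-3p.

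miR-92a-3p, the most abundant member, was lower in BDL on average but did not pass the test. It had 7673, 6797, 7994, 4819, 11620 and 6350 CPM in BDL libraries, against 12021, 12246, 11948, 10671, 12422 and 7399 CPM in sham libraries. BDL library 5 reached the sham range and sham library 6 the BDL range, and the other libraries of the groups stood apart. Mean levels were 7542 ± 2291 CPM in the BDL group and 11118 ± 1924 CPM in the sham group (n = 6 each, SD), with a fitted log2 fold change of -0.56 ± 0.24 (SE, edgeR adjusted p = 0.0679, unadjusted p = 0.0313). The size of this difference depends on the libraries kept and on the processing. Without BDL libraries 2, 4 and 6 miR-92a-3p was at -0.25 (edgeR adjusted p = 0.463), and with suffix 24 alone at -0.38 (edgeR adjusted p = 0.318). With all 12 libraries thinned to the shallowest, miR-92a-3p was at -0.30 (edgeR adjusted p = 0.239). Thinning also moved the median over the names tested by 0.24, with 133 names tested, so much of that change is shared with other names. In the other direction, 7 of 26 alternatives brought miR-92a-3p past the threshold. Among them were leaving out BDL library 5 (-0.79, edgeR adjusted p = 0.0183) and leaving out sham library 6 (-0.76, edgeR adjusted p = 0.0232). DESeq2, on the same 12 libraries, also did so (-0.68, adjusted p = 0.0197). There the median over all tested names moved by -0.15, so relative to the other names the difference was not larger. With 603 to 36874 reads of it per library, counting error is small for this member, and the spread between libraries sets its SE.

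The miR-19 members, which differ by 1 base and share a seed, did not pass the test. miR-19b-3p had 18.3, 5.39, 12.7, 7.99, 9.57 and 1.84 CPM in BDL libraries, against 20.4, 19.1, 25.8, 22.1, 21.7 and 3.05 CPM in sham libraries. Every BDL library lay below 5 of the sham libraries, and sham library 6, with 2 reads, lay below all but 1 BDL library. The log2 fold change was -0.86 ± 0.46 (SE, edgeR adjusted p = 0.149), and without sham library 6 it was -1.15 (edgeR adjusted p = 0.0391), so this 1 library decides whether miR-19b-3p is called. Without BDL libraries 2, 4 and 6 miR-19b-3p was at -0.46 (edgeR adjusted p = 0.436). miR-19a-3p had 6.66, 12.6, 22.4, 0, 12.8 and 12.8 CPM in BDL libraries and 11.8, 25.2, 13.9, 4.80, 23.2 and 18.3 CPM in sham libraries. These values overlap over most of their range, with a log2 fold change of -0.37 ± 0.45 (SE, edgeR adjusted p = 0.545), and of -0.20 without BDL libraries 2, 4 and 6 (edgeR adjusted p = 0.795).

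The miR-18a hairpin was the one from which both arms were well represented. miR-18a-5p had 16.4, 122, 19.8, 32.0, 46.6 and 47.7 CPM in BDL libraries and 45.02, 39.4, 132, 34.6, 55.4 and 61.0 CPM in sham libraries. BDL library 2 and sham library 3 stood above the others of their groups, and the log2 fold change was -0.38 ± 0.48 (SE, edgeR adjusted p = 0.554). Without BDL library 2 alone miR-18a-5p was at -1.06 (edgeR adjusted p = 0.0576), and without BDL libraries 2, 4 and 6 at -1.11 (edgeR adjusted p = 0.06). Within suffix 24 miR-18a-5p was lower in BDL (-1.47 ± 0.50, SE, edgeR adjusted p = 0.0423), and within suffix 26 its log2 fold change was 0.59 ± 0.49 (SE, edgeR adjusted p = 0.356). The difference between the suffixes was 2.19 ± 0.77 (SE) and did not pass after adjustment over all names (edgeR interaction, adjusted p = 0.104). miR-18a-3p had 57.8, 37.7, 51.6, 7.99, 65.0 and 69.7 CPM in BDL libraries and 49.2, 69.1, 43.9, 55.7, 69.5 and 21.3 CPM in sham libraries. The groups covered the same range, apart from the low value of BDL library 4, which rests on 1 read, and the log2 fold change was -0.02 ± 0.37 (SE, edgeR adjusted p = 0.97).

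The arms of the hairpins were unequally represented. miR-17-5p took 85.4% of the reads of both arms of its hairpin in BDL (95% exact binomial interval 80.5 to 89.4) and 93.2% in sham (91.1 to 94.96), summed over libraries. miR-18a-5p took 34.4% in BDL (31.3 to 37.6) and 50.7% in sham (47.8 to 53.6), so that in the pooled reads the 3p arm was the larger in BDL and the arms were even in sham. These intervals cover counting error only, and per library the 5p arm of miR-18a exceeded the 3p arm in 2 of 6 BDL and 2 of 6 sham libraries, which gives no difference in that count between the groups.

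The remaining 3 members had too few reads to pass the count filter of the test. miR-17-3p, the arm that pairs with miR-17-5p in the hairpin, had 38 reads over all BDL libraries, or 4.30 per 1000000 (95% Poisson interval 3.05 to 5.91), and 48 reads over all sham libraries, or 4.58 per 1000000 (3.38 to 6.07). The pooled rates are per 1000000 of total counts, without the TMM scaling used for CPM. They are also weighted to BDL libraries 1 and 3, with 19 and 17 of the BDL reads. The mean over libraries was 2.12 CPM in BDL and 4.36 CPM in sham. miR-17-5p from the same hairpin had pooled rates of 25.1 per 1000000 in BDL (21.9 to 28.7) and 62.98 per 1000000 in sham (58.3 to 68.0). miR-92a-1-5p had 14 reads in BDL and 16 in sham, or 1.59 and 1.53 per 1000000. miR-20a-3p had no read in any library, which allows up to 0.340 per 1000000 in the summed BDL libraries and 0.286 per 1000000 in the summed sham libraries. The remaining arms of the cluster, miR-19a-5p and miR-19b-1-5p, were outside the member list and had 1 read each in BDL and 1 read each in sham.

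Ratios between members within a library do not depend on how libraries are scaled. On the log2 scale, with 0.5 added to each count, 8 ratios were compared by a two-sided exact permutation test of the group labels, whose smallest possible p is 0.00216. The log2 ratio of miR-17-5p to miR-92a-3p was -8.45, -9.18, -8.28, -10.24, -8.74 and -11.17 in BDL libraries 1 to 6, against -7.63, -7.52, -7.61, -7.60, -7.26 and -8.12 in sham libraries 1 to 6. This ratio averaged -9.35 ± 1.14 in BDL libraries and -7.62 ± 0.28 in sham libraries (n = 6 each, SD), a difference of -1.72 (exact permutation p = 0.00216, adjusted 0.0173), and every BDL library lay below every sham library. The ratio of miR-20a-5p to miR-92a-3p was -9.50 ± 1.10 in BDL and -8.03 ± 0.58 in sham, a difference of -1.47 (exact permutation p = 0.00866, adjusted 0.0346), with overlapping groups. Both members of the AAAGUGC seed were thus lower in BDL relative to miR-92a-3p, not only relative to all microRNAs.

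The other 6 ratios did not pass (adjusted exact permutation p = 0.892 for each). Relative to miR-92a-3p, the difference between the groups was 0.075 for miR-18a-5p, 0.13 for miR-19a-3p and -0.30 for miR-19b-3p. The log2 ratio of miR-18a-5p to miR-18a-3p differed by -0.34, and that of miR-19a-3p to miR-19b-3p by 0.42, both with SDs above 1 within each group. Between the seed partners, miR-17-5p over miR-20a-5p, the log2 ratio averaged 0.15 ± 0.97 in BDL libraries and 0.41 ± 0.31 in sham libraries (n = 6 each, SD), a difference within the spread.

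Depth bears on the ratios, because the BDL libraries with the lowest ratios held 0 to 6 reads of miR-17-5p. The p-values in this paragraph are not adjusted over the 8 ratios, unlike those that decided the calls above. Without BDL libraries 2, 4 and 6 the difference for miR-17-5p to miR-92a-3p was -0.87 (exact permutation p = 0.0119). With so few libraries left, 0.0119 is the smallest p this test can give. For miR-20a-5p to miR-92a-3p the difference was -0.84 (exact permutation p = 0.0714), not past 0.05 even without adjustment. When all libraries were thinned to 121003 counts, miR-17-5p kept 0 to 7 reads in BDL libraries and 1 to 8 in sham libraries, and the difference for miR-17-5p was -0.20 (exact permutation p = 0.686). For miR-20a-5p to miR-92a-3p it was -0.76 (exact permutation p = 0.0649).

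**Figure D3:**
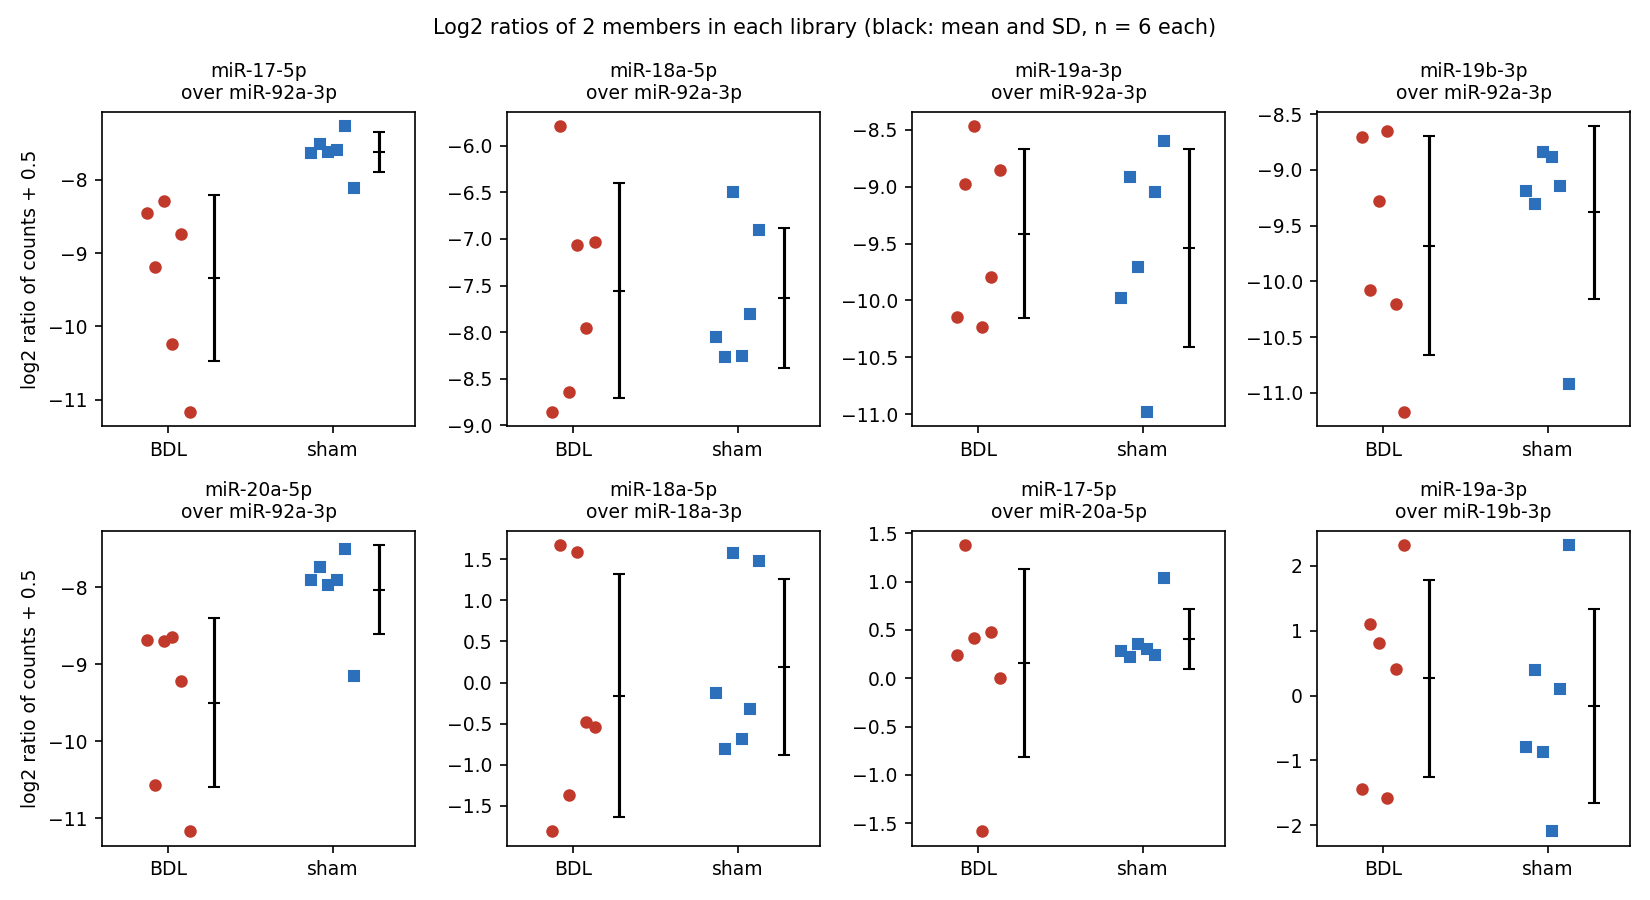
Log2 ratios of member pairs per library, BDL left of sham, with the group means. All 6 BDL libraries lie below all 6 sham libraries for miR-17-5p over miR-92a-3p, and the groups overlap in the other ratios.

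Relatives of the cluster on other chromosomes share these seeds and were counted by seed in the same comparison. The table holds 7 names with the seed AAAGUGC, of which 4 were tested, and all 4 were lower in BDL, where 18.2% of all tested names were lower: miR-17-5p, miR-20a-5p, miR-93-5p and miR-106b-5p. The last pair comes from the miR-106b-25 cluster on another chromosome, which lies in an intron of the replication gene Mcm7. miR-93-5p had 293, 104, 274, 63.9, 291 and 86.3 CPM in BDL libraries, against 541, 634, 579, 486, 624.4 and 190 CPM in sham libraries, so that the groups met only at sham library 6. Its log2 fold change was -1.42 ± 0.40 (SE, edgeR adjusted p = 0.00929), and without BDL libraries 2, 4 and 6 it was -0.81 (edgeR adjusted p = 0.055). miR-106b-5p gave -0.95 ± 0.35 (SE, edgeR adjusted p = 0.0355), a call lost in 8 of 25 alternatives.

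The seed of miR-92a-3p, AUUGCAC, did not move as a unit. Of its 6 names 5 were tested and 2 were lower in BDL (18.2% of all tested names were lower), miR-363-3p and miR-32-5p, while miR-92a-3p, miR-25-3p and miR-92b-3p did not pass. miR-32-5p gave -1.30 ± 0.49 (SE, edgeR adjusted p = 0.0416), a call lost in 13 of 24 alternatives. miR-25-3p, the abundant member of the miR-106b-25 cluster, had a log2 fold change of -0.63 ± 0.35 (SE, edgeR adjusted p = 0.16). This value rests on BDL libraries 2, 4 and 6, which were both shallow and of suffix 26. Without them, and with sham library 6 kept, miR-25-3p was at -0.027 (edgeR adjusted p = 0.942). It was at -0.0091 with suffix 24 alone (edgeR adjusted p = 0.978) and at -1.67 with suffix 26 alone (edgeR adjusted p = 0.00356). miR-92b-3p had 0.30 (edgeR adjusted p = 0.423). Of the seed GUGCAAA of miR-19 both names were tested and none was called, and of the seed AAGGUGC of miR-18 the single tested name, miR-18a-5p, was not called.

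**Figure D4:**
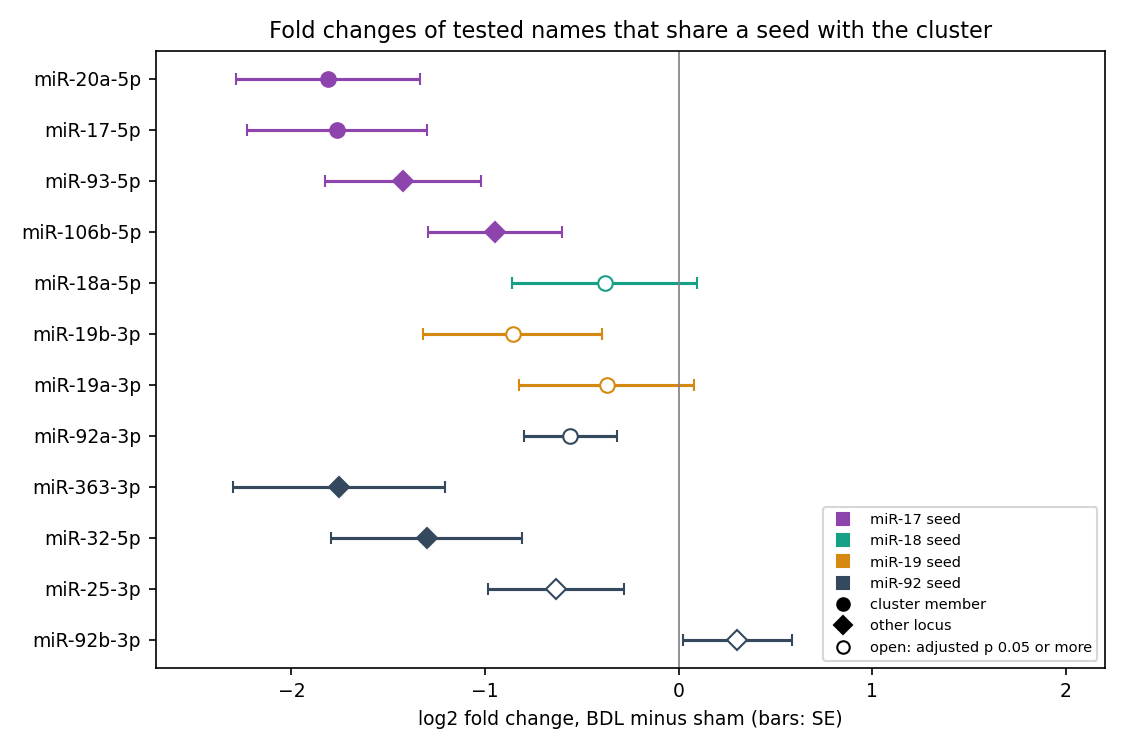
Log2 fold change (BDL minus sham) of each tested microRNA of the 4 seed families, with its SE from edgeR. The 4 tested names with the seed AAAGUGC lie between -1.81 and -0.95, while the names of the other seeds reach from -1.75 to 0.30.

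The 2 paralogous clusters gave further values. Of the miR-106b-25 cluster 6 of 6 names were tested, with 0 higher and 3 lower in BDL (24.6% of all tested names were higher and 18.2% lower) and a median log2 fold change of -0.79, against 0.031 over all tested names. The third lower name was miR-106b-3p (-1.03 ± 0.29, SE, edgeR adjusted p = 0.00981), whose call is lost without BDL libraries 2, 4 and 6 (-0.63, edgeR adjusted p = 0.0732). miR-93-3p (0.47) and miR-25-5p (0.28), passenger arms of that cluster, did not pass (edgeR adjusted p = 0.389 and 0.486). Of the miR-106a-363 cluster on chromosome X 1 of 10 names was tested. That name, miR-363-3p, had 5.41, 0, 6.36, 0, 1.28 and 0 CPM in BDL libraries, against 9.35, 16.3, 6.27, 16.3, 13.6 and 7.62 CPM in sham libraries, with a log2 fold change of -1.75 ± 0.55 (SE, edgeR adjusted p = 0.0164). The groups met at BDL library 3 and sham library 3. Without BDL libraries 2, 4 and 6 the log2 fold change of miR-363-3p was -1.33 (edgeR adjusted p = 0.0507). miR-20b-5p, also of the seed AAAGUGC, had 3, 0, 2, 0, 2 and 0 reads in BDL libraries and 7, 5, 3, 2, 5 and 1 reads in sham libraries, too few for the test.

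Several markers of blood cells fell in the same BDL libraries, and several of hepatocytes rose, where 18.2% of all tested names were lower and 24.6% higher. Leukocyte microRNAs summed to 562.5 to 2214 CPM in BDL libraries and 2805 to 6421 CPM in sham libraries, with 3 of 5 tested names lower and 0 higher, and the most abundant, miR-142a-5p, had a log2 fold change of -1.90 ± 0.36 (SE, edgeR adjusted p = 5.98e-04). Platelet or endothelial microRNAs summed to 631.4 to 2619 CPM in BDL libraries and 3151 to 8883 CPM in sham libraries, with 2 of 2 lower, miR-126a-3p at -1.79 ± 0.40 (SE, edgeR adjusted p = 0.00189), though at -0.68 with suffix 24 alone (edgeR adjusted p = 0.0549). Sham library 6, low for several cluster members, held the highest of these sums. Both of these summed levels stayed below the whole sham range in every BDL library. Erythroid microRNAs summed to 124801 to 378360 CPM in BDL libraries and 358588 to 556055 CPM in sham libraries, with 2 of 4 tested names lower and 0 higher, but the most abundant, miR-486a-5p, did not pass (-0.49, edgeR adjusted p = 0.162). Hepatocyte microRNAs summed to 74747 to 327680 CPM in BDL libraries and 4013 to 25209 CPM in sham libraries, with 2 of 3 tested names higher and 0 lower, miR-122-5p at 4.26 ± 0.55 (SE, edgeR adjusted p = 3.81e-05). None of the 16 marker names was at 0 in every library. The part of these shifts in the lower miR-17-5p and miR-20a-5p was not tested.

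Within the cluster the members did not vary as 1 block across libraries. Over the 12 libraries Pearson's r of log2 CPM was 0.910 between miR-17-5p and miR-92a-3p and 0.834 between miR-17-5p and miR-20a-5p, and with the group means removed it was 0.832 and 0.655. miR-19b-3p and miR-20a-5p had an r of 0.891, and 0.914 with the group means removed. Between both miR-18a arms r was -0.049, and between miR-19a-3p and miR-19b-3p it was 0.050. Low counts in the shallow libraries and the shared scaling of each library enter these values, which are given as a description.

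The names outside the cluster most like miR-17-5p across the 12 libraries were miR-142a-3p (r = 0.967), miR-140-5p (0.948), miR-93-5p (0.947), miR-26b-5p (0.936) and miR-101b-3p (0.932). With the group means removed, r was 0.868 to 0.933 for these 5. Those most like miR-92a-3p were miR-93-5p (r = 0.941), miR-222-3p (0.906), miR-101a-3p (0.905), miR-6967-3p (0.902) and miR-140-5p (0.896), with 0.804 to 0.891 once the group means were removed. miR-93-5p and miR-140-5p stood in both lists. All 8 of these names were lower in BDL, at log2 fold changes of -2.47 to -0.95, where 18.2% of all tested names were lower. The names were picked by r over both groups together, and miR-17-5p and miR-92a-3p had lower means in BDL. Names most like them were therefore likely to be lower too, and this count is no separate result. Calls were lost in 11 alternatives for miR-6967-3p, 6 for miR-101b-3p, 4 for miR-101a-3p, 3 for miR-142a-3p and 1 for miR-93-5p, and in none of those run for miR-140-5p, miR-26b-5p and miR-222-3p.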

How the data were processed

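Small RNA of plasma vesicles was sequenced in 6 BDL and 6 sham libraries. The authors deposited 1 table of raw counts per mature microRNA name and library. Per the submitters' processing notes cutadapt and STAR were used; their versions, the genome build, the microRNA annotation and the treatment of reads that match several names were not stated in any source used. No column of the table was left without a sample (0 columns). The table's 67 names of other species, 0.0012 to 0.0079% of a library's counts, were left out of totals and tests. The cluster members, lists and tests were chosen with earlier results of these data known.

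Counts were filtered with edgeR's filterByExpr, scaled by TMM and tested with edgeR 4.0.16 in R 4.3.3 (quasi-likelihood, BDL against sham, 6 libraries each, no covariate), with Benjamini-Hochberg adjustment over all 341 tested names and a threshold of 0.05. CPM are counts per 1000000 of the scaled library size, computed here. Fold changes are log2, BDL minus sham. The biological coefficient of variation was 45.5%. Ratios used log2 of counts plus 0.5 and an exact permutation test (scipy 1.17.1). Alternatives were other scalings, filters, DESeq2 1.42.0, limma-voom (limma 3.58.1), a replicate block, the code suffixes, thinning and leaving out libraries; leaving out BDL libraries 2, 4 and 6 and thinned or reduced ratios were chosen after seeing the data. Named were all members, the guide arms and tested names of both paralogous clusters, names sharing a member's seed, the most abundant marker per cell class, and the 5 names with the highest r to miR-17-5p and to miR-92a-3p; passenger arms and seed relatives were added after their values were seen. Reads carry no molecular identifiers, so 95% intervals and the floor of 3 counts cover counting error only.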

Additional observations from a re-analysis of the deposited data

Results flagged for a closer look

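In 9 of 34 groups of 6 libraries examined, 1 library stood far from the other 5 by Dixon's criterion. Chance gives this in about 1 in 20 groups, but the groups share libraries and members, so the 9 are not separate events. In 7 of the 9 the library that stood apart was sham library 6. Its log2 CPM was 4.76 for miR-17-5p, where the other sham libraries gave 5.80 to 6.35, and 3.74 for miR-20a-5p, where the others gave 5.50 to 6.11. For miR-19b-3p it was 2.07, against 4.34 to 4.75 in the others, and for miR-92a-3p 12.85, against 13.38 to 13.60 in the others. The log2 ratio to miR-92a-3p in sham library 6 was -10.92 for miR-19b-3p and -9.16 for miR-20a-5p, and its log2 ratio of miR-17-5p to miR-20a-5p was 1.04, against 0.22 to 0.35 in the others. In the BDL group, library 4 stood apart with a log2 CPM of 3.19 for miR-18a-3p, where the other BDL libraries gave 5.28 to 6.15, and of 0.21 for miR-19a-3p, where they gave 2.97 to 4.56. BDL library 4 was the shallowest library, with 1 read of miR-18a-3p and 0 of miR-19a-3p. What set sham library 6 apart was not tested.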

How the results depend on the processing

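The calls of miR-17-5p and miR-20a-5p held in all 25 and 24 alternatives that gave a value (log2 fold changes of -3.25 to -1.23 and -2.11 to -1.30). The cause of the following changes was not tested, unless fewer reads or libraries are named. With suffix 26 alone 54 names were higher and 1 of 4 tested members lower, miR-18a-5p was at 0.59, and the ratio differences were -2.46 (miR-17-5p to miR-92a-3p), -1.86 (miR-20a-5p to miR-92a-3p) and 0.91 (miR-18a-5p to miR-18a-3p). With suffix 24 alone miR-18a-3p was at 0.13 and the ratio differences were -0.99 (miR-17-5p to miR-92a-3p), -1.03 (miR-18a-5p to miR-92a-3p), -1.07 (miR-20a-5p to miR-92a-3p) and 0.083 (miR-17-5p to miR-20a-5p), where 3 libraries against 3 allow no exact permutation p below 0.1. Thinning to the shallowest library left 40 names higher, 30 lower and 0 members lower of 1 tested, with ratio differences of -0.20 (miR-17-5p to miR-92a-3p), -0.029 (miR-19a-3p to miR-92a-3p), 0.25 (miR-19b-3p to miR-92a-3p), -0.76 (miR-20a-5p to miR-92a-3p), 0.56 (miR-17-5p to miR-20a-5p) and -0.28 (miR-19a-3p to miR-19b-3p), from few reads. Without BDL libraries 2, 4 and 6 miR-18a-3p was at 0.18, and the ratio to miR-92a-3p differed by -0.85 for miR-18a-5p and -0.84 for miR-20a-5p. miR-18a-3p was at 0.065 on total counts and at 0.068 with libraries summed per code digit. Leaving out 1 library at a time gave 65 to 89 names higher, 54 to 70 lower and 2 to 4 members lower, with 4 (miR-19b-3p and miR-92a-3p added) without sham library 6. It moved miR-18a-3p over -0.28 to 0.052, and the ratio differences over -0.28 to 0.33 (miR-18a-5p to miR-92a-3p), -0.16 to 0.31 (miR-19a-3p to miR-92a-3p), -0.61 to 0.00031 (miR-19b-3p to miR-92a-3p) and -0.50 to 0.094 (miR-17-5p to miR-20a-5p). The median of all names moved by -0.14 with DESeq2 size factors and by 0.09 on total counts, which left 46 names lower. A replicate block on the sample numbers gave 72 names higher, 61 lower and 2 members lower (miR-17-5p at -2.02), but the numbers give no sign of pairing: correlations of same-numbered deviations were -0.089 to 0.31, and only pairs 5 and 6 correlated best with their own number. Few reads limit the members below miR-92a-3p, at 0 to 6 reads of miR-17-5p in 3 BDL libraries.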
